A study of Mus musculus with 2 samples.

Results

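The Dlk1-Meg3 imprinted cluster of mouse chromosome 12 was followed in the embryonic heart ventricle through 6 genes, which make up 6 of the 23276 gene rows of the deposited table. They were taken by symbol: Dlk1, Rtl1 and Dio3, which are expressed from the paternal chromosome, and Meg3, Rian and Mirg, which are expressed from the maternal chromosome. The cluster was chosen by its own WT and KO values, so the levels and ratios of its members are a description and carry no test. The WT library came from wild-type ventricles and the KO library from ventricles in which Fendrr, a long non-coding RNA gene, had been deleted on both alleles by homologous recombination in the stem cells. Each library was made from RNA of 4 pooled ventricles of E12.5 embryos. The embryos of both groups had the genetic background C57BL/6 x 129SV and were derived from embryonic stem cells by tetraploid complementation, in which the tetraploid host contributes mainly to extraembryonic tissue. How many stem cell clones were used is not given in the labels.

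Genotype, sequencing run and pool cannot be told apart, because 1 library stands for each genotype and each had a run of its own. The WT run stopped early and its bases were called by hand, while those of KO came from the standard pipeline. No difference below has a replicate check, and "higher" or "lower" describes these libraries. The row of Fendrr, listed as 1110050K14Rik, was at 0 in both libraries and so checks neither label. The pools also differed in 4 Y-linked genes, whose summed level was 37.3 FPKM (WT) against 1.32 FPKM (KO), and the part of this in the imprinted genes was not tested. Values are FPKM, fragments scaled to transcript length in kilobases and to the number of mapped fragments. In whole ventricles, a difference in the number of cells of a type and a difference in RNA per cell cannot be told apart. Of 8 marker genes of ventricular cardiomyocytes, all 8 had values in both libraries, between 14.6 and 9103 FPKM in WT and between 11.2 and 9478 FPKM in KO. Differences are given as log2((KO + 1)/(WT + 1)), which shrinks the ratios of weakly expressed genes, and counts over all genes use the 11349 genes whose mean over both libraries reached 1 FPKM. The median log2 ratio of those genes was -0.11.

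In this cluster a methylated control region on the paternal chromosome keeps the parental copies apart: protein-coding genes are read from the paternal copy, and the maternal copy yields a chain of non-coding RNAs in a single orientation. Meg3, Rian and Mirg belong to that chain, and its introns and exons hold many microRNAs and small nucleolar RNAs. Dlk1 encodes a transmembrane relative of the Notch ligands, Rtl1 a retrotransposon-derived protein needed in placenta and muscle, and Dio3 the deiodinase that inactivates thyroid hormone. MicroRNAs made from the maternal strand opposite Rtl1 are known to be fully complementary to the Rtl1 transcript and to direct its cleavage.

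The sequences that link the maternal RNAs with Rtl1 are shown first. RefSeq (build GRCm38.p6) gave 107 mature microRNAs for 58 microRNA symbols of the domain that have a row in the table. Of the 107, 11 mature microRNAs from 6 hairpins were complementary to the GENCODE transcript of Rtl1 over their whole length. 1 microRNA of each hairpin is given 5′ to 3′, with the seed (bases 2 to 8) in capitals. All of them lie on the plus strand, and no 2 share a seed.
miR-431-5p: uGUCUUGCaggccgucaugca
miR-433-3p: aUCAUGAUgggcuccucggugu
miR-127-3p: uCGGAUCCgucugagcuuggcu
miR-434-3p: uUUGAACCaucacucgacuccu
miR-432: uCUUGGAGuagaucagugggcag
miR-136-5p: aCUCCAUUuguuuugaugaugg

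Their sites in that transcript show the same pairing from the other side. The sites of miR-127-3p and miR-433-3p are given with the bases that face the seed in capitals. The site of miR-127-3p covers bases 2642 to 2663 of the 6358-base transcript, and that of miR-433-3p bases 3749 to 3770.
Rtl1 site of miR-127-3p: agccaagctcagacGGATCCGa
Rtl1 site of miR-433-3p: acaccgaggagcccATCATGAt

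The promoter of Meg3, the most upstream of the 3 maternal RNAs, is shown because those RNAs were all higher in the KO library. The window runs from 250 bases before to 50 bases after the RefSeq start, at chr12:109540746-109541045 on the plus strand (GRCm38.p6). Capitals mark TGACGTCA, the palindromic cAMP response element that begins 57 bases before the start, and TATATAAA, a TATA box that begins 27 bases before it.
Meg3 promoter: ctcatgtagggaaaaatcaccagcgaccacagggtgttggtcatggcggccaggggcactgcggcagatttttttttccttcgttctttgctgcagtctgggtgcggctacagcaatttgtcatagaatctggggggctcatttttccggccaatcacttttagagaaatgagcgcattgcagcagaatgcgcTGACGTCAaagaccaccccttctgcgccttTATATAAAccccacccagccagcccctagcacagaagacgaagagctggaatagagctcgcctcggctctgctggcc

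Searched on both strands, TGACGTCA occurred in 1.79% of all 32851 promoter windows of this length and TATATAAA in 1.40%. RefSeq gave 6 windows for 5 of the members. This window of Meg3 was the 1 of the 6 that held either motif. It held 13 CG dinucleotides, against 0 in the window of Rian, 9 in that of Dlk1 and 25 in that of Dio3. The median over all windows was 7. A match describes these letters and is not evidence of binding.

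All 5 members with a value above 0 were higher in the KO library. Among all measured genes, 33.0% had a higher FPKM value in KO than in WT. Meg3 was the only member past the 2-fold limit: 1 of 5 measured members was at least 2-fold higher, against 0.467% of all genes, and 0 of 5 were at least 2-fold lower, against 0.388%. Because these values chose the members, nothing is read from these shares. With the median of all genes brought to 0, all genes at least 2-fold apart were 62 higher and 25 lower, in place of 53 and 44.

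**Figure D1:**
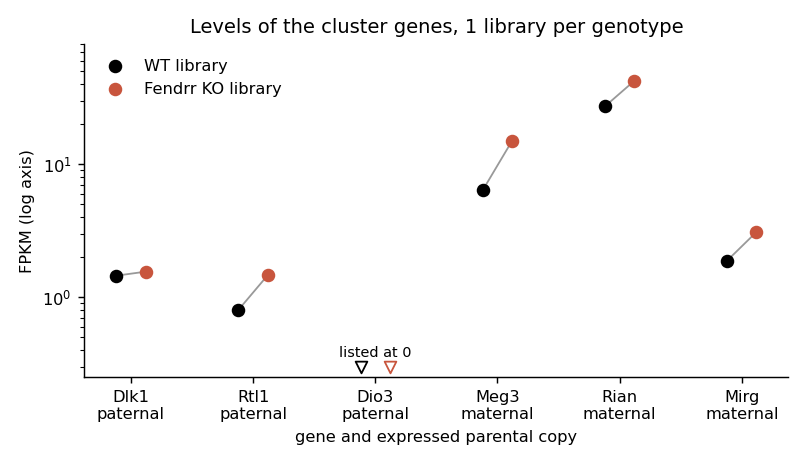
FPKM (log axis) of the 6 cluster genes in the WT library (black) and the Fendrr KO library (orange), with lines joining the values of 1 gene and open triangles for genes listed at 0. Meg3 goes from 6.38 to 15.0 FPKM and Rtl1 from 0.803 to 1.46 FPKM, while Dlk1 stays near 1.5 FPKM.

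Meg3, a long non-coding RNA with growth-restraining activity in cell lines, was at 6.38 FPKM (WT) against 15.0 FPKM (KO). That is a ratio of 2.35 in FPKM and a log2 ratio of 1.11. It placed Meg3 at rank 41 of 11349 genes from the highest ratio down. Rian, the host of a row of small nucleolar RNAs, was the most abundant member, at 27.2 FPKM (WT) against 42.3 FPKM (KO). Its FPKM ratio was 1.55, with a log2 ratio of 0.62 and rank 156. Mirg, the host of the distal microRNAs, was at 1.88 FPKM (WT) against 3.09 FPKM (KO), with a ratio of 1.64, a log2 ratio of 0.50 and rank 257. The listed values of all 3 maternal RNAs were higher in KO, with the highest ratio at Meg3. The counting intervals of the Mirg ratio given below include the ratios of Meg3 and Rian, so the order of these ratios is not resolved for Mirg.

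The 3 maternal RNAs together came to 35.4 FPKM (WT) against 60.3 FPKM (KO), a ratio of 1.70. Rian made up 76.7% of this sum in WT and 70.1% in KO. Meg3 made up 17.99% and 24.8%, and Mirg 5.31% and 5.12%. By the listed values, the share of Meg3 was higher in the KO library and that of Mirg was nearly the same. The counting intervals of the Mirg ratio given below include the ratios of Meg3 and Rian, so a steady share of Mirg is not resolved.

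Dlk1 differed least. Dlk1 was at 1.45 FPKM (WT) against 1.56 FPKM (KO), a ratio of 1.07 and a log2 ratio of 0.06, which placed it at rank 2811. The level was modest in both libraries: 54.4% of all rows in WT and 55.0% in KO had a lower value. Set against Dlk1 in the same library, Meg3 was 4.39 times as high in WT and 9.63 times as high in KO, and Rian 18.7 and 27.2 times as high.

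Rtl1 was at 0.803 FPKM (WT) against 1.46 FPKM (KO). The FPKM ratio was 1.82, but the log2 ratio was 0.45 because the pseudocount weighs heavily at this level, and its rank was 338. By the FPKM ratio Rtl1, a paternally expressed gene, lay between the maternal RNAs Mirg and Meg3 rather than beside Dlk1. Dio3 was listed at 0 in both libraries, so no ratio exists for it. The mean log2 ratio was 0.75 over the 3 maternal members and 0.26 over the 2 measured paternal members, a difference of 0.49. Whether parental class separated the measured members depended on the scale. On the log2 scale with a pseudocount of 1, Rtl1 (0.45) and Dlk1 (0.06) both lay below Mirg (0.50), the lowest maternal RNA. By the FPKM ratio, Rtl1 (1.82) lay above Mirg (1.64) and Rian (1.55). The counting interval of the Rtl1 ratio given below includes the ratios of Rian, Mirg and Meg3. The place of Rtl1 among the maternal RNAs is therefore not resolved. The difference between the class means rests on Dlk1 and Rtl1 alone on the paternal side.

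**Figure D2:**
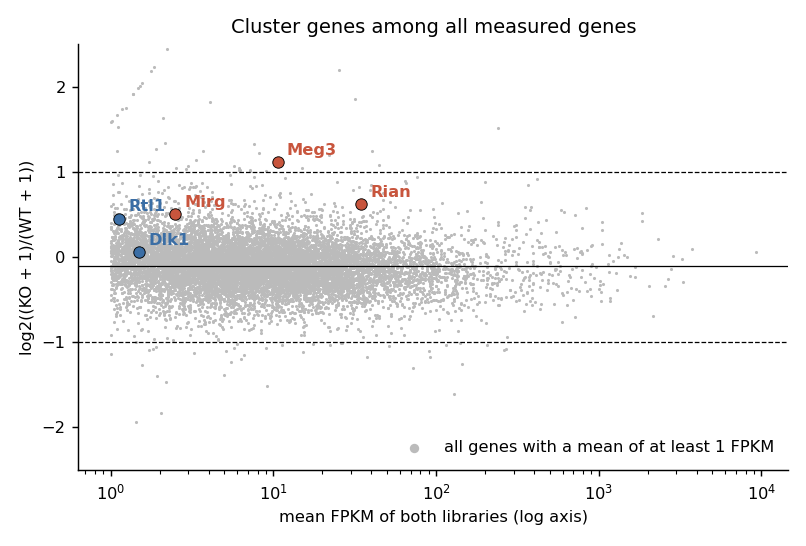
Log2 ratio of KO to WT (FPKM + 1) against the mean FPKM of both libraries (log axis) for the 11349 genes whose mean reached 1 FPKM (grey), with paternally expressed members in blue and maternally expressed members in orange. The solid line is the median of -0.11, the dashed lines are the 2-fold limits, and 18 genes lie outside the axis limits of 2.5; Meg3 is the member above the upper limit and the other 4 lie between 0 and that limit.

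Read numbers could be estimated for Rtl1 and, less surely, for Mirg. Among 2213 genes with values above 0 in both libraries and a mean under 0.3 FPKM, 66.2% gave, on dividing KO by WT, a ratio of whole numbers up to 10 times 0.796, to within 0.02%. That factor is what 1 KO read was worth relative to 1 WT read. The tolerance was chosen after the values were seen. At other values of this factor the median share was 0.181% and the highest 33.2%. In 211 genes with a single GENCODE transcript, the most frequent worth of 1 read, shared by 79 of them, was 0.0764 FPKM over 1 kilobase in WT. If FPKM was scaled to all mapped reads, the libraries held about 13100000 (WT) and 16400000 (KO) of them, so KO was 1.26 times as deep.

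For Rtl1, 55 and 126 are the smallest whole numbers that give the ratio. The coding part of the GENCODE transcript with its stop codon, 5235 bases, returns these same numbers. That length was 1 of 3 tried and was chosen after the values were seen, and the full transcript would give 66.8 and 153 reads, of which the first is not whole. The exact Poisson 95% intervals of the levels of Rtl1 were 0.605 to 1.05 FPKM in WT and 1.22 to 1.74 FPKM in KO. The exact Clopper-Pearson 95% interval of its FPKM ratio was 1.32 to 2.55. For Mirg the length is less certain. A 1300-base transcript, chosen among 12 after the values were seen because it came nearest to whole reads, puts them at 32.02 and 66.05, taken as 32 and 66 reads. The intervals were then 1.29 to 2.66 FPKM in WT and 2.39 to 3.93 FPKM in KO, and the ratio had an interval of 1.06 to 2.59. With the smallest whole numbers that fit the Mirg ratio, 16 and 33 reads, that interval was 0.878 to 3.19. These intervals describe the precision that the read numbers give and test nothing, since these same values chose the members. They cover counting error only, and the labels name no molecular identifiers that would mark PCR copies.

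For Dlk1, Meg3 and Rian, which have 10, 11 and 20 GENCODE transcripts, the reads could not be resolved. Over the shortest and longest transcripts, Dlk1 would rest on between 9.17 and 88.3 reads in WT and between 12.4 and 119 in KO. At its shortest transcript Meg3 would rest on 35.1 reads in WT and 104 in KO, and Rian on 105 and 204. For Dio3, a fixed 3 reads was taken as the limit for a count of 0, which is not an interval like those of Rtl1 and Mirg. Over the Dio3 transcripts of 2030 and 1449 bases, 3 reads would be 0.113 to 0.158 FPKM in WT. In KO they would be 0.0899 to 0.126 FPKM. Whether a listed 0 is a count or a failed estimate is not given in the sources used here.

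The order of levels was the same in both libraries: Rian, Meg3, Mirg, Dlk1, Rtl1 and then Dio3. Neighbours in this order were not all separated by counting error. In WT the Mirg interval includes the Dlk1 value, and in KO the Rtl1 interval does.

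The domain from Dlk1 to Dio3 held 74 rows of the table: 58 microRNAs, 7 small nucleolar RNAs and 9 other genes. Of those 9, 6 were above 0 in both libraries, namely the 5 measured members and 6430411K18Rik, a non-coding RNA on the plus strand, opposite Rtl1. 6430411K18Rik was at 0.697 FPKM (WT) against 0.868 FPKM (KO), a ratio of 1.24. The libraries were strand-specific, but whether strand was used in counting is not given in the sources used here, so reads of Rtl1 and of the RNA opposite it cannot be told apart. Dio3os and 3110009F21Rik were listed at 0 in both libraries, as was Dio3.

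**Figure D3:**
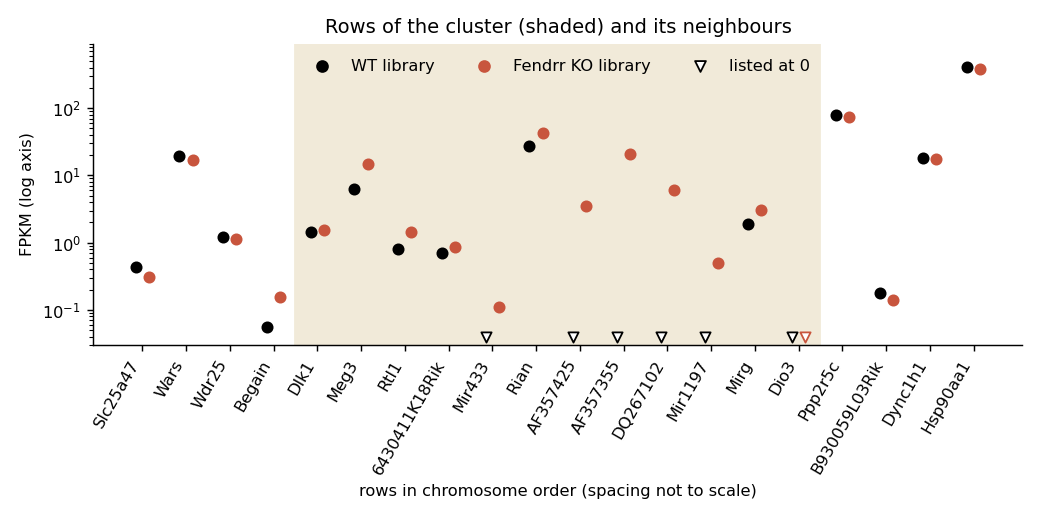
FPKM (log axis) of rows in chromosome order across the cluster (shaded) and beside it, in the WT library (black) and the Fendrr KO library (orange), with open triangles for values listed at 0; rows at 0 in both libraries, other than Dio3, are not drawn. Points of Meg3, Rian, Mirg and Rtl1 are higher in KO, 5 small RNA rows are above 0 in KO only, and neighbours such as Ppp2r5c (78.1 and 73.5 FPKM) and Wars (19.6 and 17.2 FPKM) are slightly lower.

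Small nucleolar RNAs of the domain, which Rian is known to host, had values in the KO library only. AF357355 was at 20.6 FPKM, DQ267102 at 6.00 FPKM and AF357425 at 3.53 FPKM in KO, and all 3 were listed at 0 in WT. The other 4 small nucleolar RNA rows were listed at 0 in both libraries. GENCODE vM21 held 4 of the 7 under their symbols. Of these, DQ267102 and AF357425, which had KO values, and DQ267100, which had none, are shown 5′ to 3′ with the C box TGATGA and the D box CTGA in capitals, the marks of RNAs that guide ribose methylation.
DQ267102: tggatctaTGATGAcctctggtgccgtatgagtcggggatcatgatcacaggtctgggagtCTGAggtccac
AF357425: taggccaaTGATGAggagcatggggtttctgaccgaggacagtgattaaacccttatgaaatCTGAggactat
DQ267100: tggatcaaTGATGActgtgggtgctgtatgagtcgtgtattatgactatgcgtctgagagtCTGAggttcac

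These boxes, each within 20 bases of its end on the strand of the RNA, occurred in 20.5% of the 1507 small nucleolar RNAs of GENCODE. The 3 sequences are alike in length and boxes whether or not a value was listed. Of the 58 microRNA rows of the domain, 2 were above 0 in KO and none in WT: Mir433, at 0.112 FPKM, and Mir1197, at 0.507 FPKM. They span 124 and 120 bases, and 1 KO read was worth 0.0608 FPKM over 1 kilobase. Neither value thus exceeds what a single read would give over its span. Mir433 also lies within 6430411K18Rik, so reads of the microRNA and of that RNA cannot be told apart. All other microRNA rows, among them Mir127, Mir136, Mir431, Mir432 and Mir434, whose mature forms pair with Rtl1 as printed above, were listed at 0 in both libraries.

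Short rows across the table were also above 0 more often in KO. Of 571 rows with a RefSeq span under 100 bases, 0 were above 0 in WT and 23 in KO. Of the 106 small nucleolar RNA rows outside the domain, 17 were above 0 in WT and 44 in KO. Of the 528 microRNA rows outside it, 3 were above 0 in WT and 1 in KO. The labels say that a length filter of 100 bases may have been applied to the WT reads. Its part in the small RNA values was not tested, and no ratio is given for them.

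The expressed genes beside the domain lay near the median of all genes. Among the 5 nearest rows on each side, 5 reached a mean of 1 FPKM, and 0 of those 5 were higher in KO, with log2 ratios between -0.18 and -0.04. Begain, the nearest row before Dlk1, was at 0.0564 FPKM (WT) against 0.157 FPKM (KO). Ppp2r5c, a phosphatase subunit gene and the nearest row after Dio3, was at 78.1 and 73.5 FPKM. Their direction depended on the scaling: against the median of all genes, -0.11, 4 of the 5 lay above and Wars below. The 5 were within 0.2 of 0 on the log2 scale.

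Other imprinted genes were compared by lists of textbook members. The values do not tell the parental copies apart. Whether a listed gene was read from a single copy in the ventricle was therefore not checked. Of 25 other paternally expressed genes, 18 reached a mean of 1 FPKM, and 9 of those 18 were higher in KO. Their median log2 ratio was 0.03, against -0.11 for all genes and 0.26 for the 2 paternal members here. At least 2-fold lower were 2 of them, Mest (557 and 1.48 FPKM) and Peg13 (2.86 and 0.0129 FPKM), and 0 were 2-fold higher. Igf2 (671 and 1004 FPKM) had a log2 ratio of 0.58 and Nnat (18.9 and 27.8 FPKM) had 0.54. Both lay above Mirg (0.50) and Rtl1 (0.45). Airn (13.9 and 19.9 FPKM), at 0.49, lay above Rtl1. Igf2, Nnat and Airn were named after their values were seen. Of 26 other maternally expressed genes, 18 were measured and 7 of those were higher in KO, with a median of -0.07, against 0.62 for Meg3, Rian and Mirg. H19 (1360 and 41.9 FPKM) was the 1 gene at least 2-fold lower, and 0 were 2-fold higher. The maternal RNAs H19 and Meg3, both non-coding, thus lay on opposite sides.

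**Figure D4:**
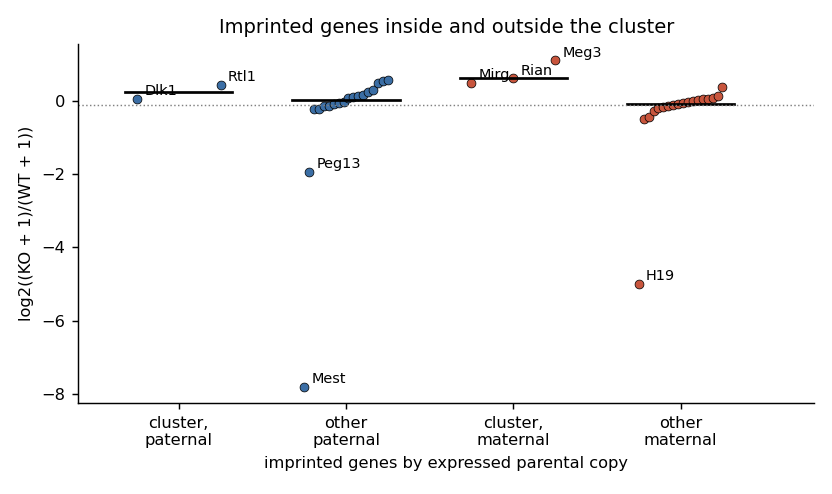
Log2 ratio of KO to WT (FPKM + 1) for imprinted genes whose mean reached 1 FPKM, inside and outside the cluster. Genes are grouped by the parental copy that the textbook lists give as expressed, which was not checked in the ventricle. Bars are medians and the dotted line is the median of all genes. The maternal RNAs of the cluster lie above the other maternally expressed genes, of which the highest (Klf14) is at 0.38, and Mest, Peg13 and H19 lie far below.

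The list for control of the domain imprint held genes of imprints and DNA methylation, and also Ezh2, Jarid2, Yy1 and Ctcf. Of its 20 genes 17 were measured, 5 of them higher in KO, with Ezh2 and Jarid2 among these, and 0 at least 2-fold apart. The median log2 ratio of the 17 was -0.08, close to that of all genes. Trim28, the corepressor recruited by KRAB zinc finger proteins to imprinted regions, was at 65.4 FPKM (WT) against 40.9 FPKM (KO). Dnmt1, the maintenance DNA methyltransferase, was at 50.7 and 41.7 FPKM. The zinc finger genes Zfp57 (11.29 and 10.996 FPKM) and Zfp445 (12.001 and 12.67 FPKM), named after their values were seen, had nearly equal values.

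Lists of genes related to the protein-coding members were described in the same way. In the list of Dlk1 and the Notch pathway, 14 of 18 genes were measured and 7 were higher in KO, with a median of 0.00 and 0 at least 2-fold apart. The most abundant were Fn1, which encodes fibronectin (52.4 and 54.1 FPKM), and Hey2, a Notch target of the ventricular wall (50.4 and 45.5 FPKM). Dlk2, the paralogue of Dlk1, and Dll3 were listed at 0 in both libraries. Of 19 thyroid hormone genes, Dio3 among them, 11 were measured and 5 were higher in KO, with a median of -0.03. On the log2 scale with the pseudocount, 0 of them were at least 2-fold apart. Ttr, a measured gene named after its values were seen, is also counted among the fetal liver and yolk sac markers below. It was at 0.438 FPKM (WT) against 1.79 FPKM (KO). Its FPKM ratio was 4.09, but its log2 ratio with the pseudocount was 0.96, just under the limit. Thra, a thyroid hormone receptor gene, was at 21.9 and 20.8 FPKM, and the corepressor gene Ncor1 at 18.8 and 19.2 FPKM. Of the deiodinases, Dio1 was also listed at 0, and Dio2, which activates the hormone and was named after its values were seen, was at 1.18 and 1.45 FPKM. Of 15 rows of retrotransposon-derived genes, Rtl1 among them, 7 were measured and 4 were higher in KO, with a median of 0.04 and 0 at least 2-fold apart. The most abundant were Cxx1b (13.03 and 13.43 FPKM) and its near-identical copy Cxx1a (13.8 and 11.9 FPKM), whose separate levels are uncertain.

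Markers of other tissues and cell types were also set beside the members. Fetal liver and yolk sac, listed as tissues known for high Dlk1 or H19, had 8 marker rows. Their summed level was 0.832 FPKM (WT) against 21.8 FPKM (KO), with 7 of 8 higher in KO. Over all 23276 rows of the table, 29.3% were higher in KO. Only 2 of the 8 markers reached a mean of 1 FPKM. Most of the KO sum was Afp, at 16.6 FPKM against 0.110 FPKM in WT, while Alb was listed at 0 in both libraries. Mesenchymal markers (6 rows) summed to 330 FPKM (WT) against 411 FPKM (KO), with 5 of 6 higher in KO. Skeletal muscle markers (7 rows) summed to 7.79 and 5.99 FPKM, and Myf5, Myf6 and Pax7 were listed at 0 in both. Nerve and neural crest markers (8 rows) summed to 4.90 and 5.02 FPKM. Pituitary and adrenal markers (4 rows) summed to 1.22 and 0.939 FPKM, with the rows of Gh and Cyp11a1 listed at 0. Endothelial markers (5 rows) summed to 175 and 174 FPKM, erythroid markers (5 rows) to 4742 and 5384 FPKM, and atrial markers (4 rows) to 3885 and 3071 FPKM. Summed levels were thus higher in KO, as were Meg3, Rian, Mirg and Rtl1, for the liver and yolk sac, mesenchymal, erythroid, and nerve and neural crest lists. The sum of the 8 ventricular cardiomyocyte markers was also higher, at 19127 FPKM (WT) against 19708 FPKM (KO), with 4 of 8 higher. Rows higher in KO were 6 of 8 for nerve and neural crest, 3 of 7 for skeletal muscle and 0 of 4 for pituitary and adrenal. They were 3 of 5 for endothelium, 3 of 5 for the erythroid list and 2 of 4 for the atrial list. The part of these lists in the values of the members was not tested.

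Genes at the same levels in both libraries were looked up by distance in log2(FPKM + 1). With 2 libraries this likeness rests on 2 values per gene. Nearest to Dlk1 were Med12l (1.46 and 1.54 FPKM), Gk5 (1.45 and 1.57 FPKM) and Steap3 (1.47 and 1.57 FPKM), all within a distance of 0.013. Nearest to Meg3 were Sfrp2 (7.79 and 15.7 FPKM), Gm5595 (7.88 and 14.0 FPKM) and AA465934 (7.86 and 13.7 FPKM), none closer than 0.26. Nearest to Rian were Drap1 (29.2 and 41.0 FPKM), P4ha1 (29.4 and 41.3 FPKM) and Lsm5 (29.4 and 39.3 FPKM), none closer than 0.11. Dlk1 thus had closer neighbours in level than Meg3 or Rian. These distances use the values that chose the members, and the pseudocount shortens them at low levels. Nothing is therefore read from this difference.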

How the data were processed

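FPKM values for the WT and KO libraries, 1 per gene symbol, were computed and deposited by the authors. TopHat2 2.0.6, Bowtie2 2.0.2 and Cufflinks 2.0.2 and the build mm9 were used, per the submitters' processing notes. The annotation and options are not given in the sources used here. Per the labels' protocols, 500 ng of RNA was depleted of ribosomal RNA and amplified by 15 PCR cycles, and reads had 100 bases. Of 23276 symbols, 7508 were listed at 0 in WT and 6886 in KO.

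Log2 ratios used a pseudocount of 1 FPKM, and genes were kept where the mean reached 1 FPKM. Read numbers were recovered from ratios of low values, with the tolerance and transcript lengths chosen after the values were seen. With 1 library per genotype no test was made. Gene order came from RefSeq on GRCm38 and transcript lengths from GENCODE vM21, so no coordinates are given for the values. All 6 members had a row. Named genes were the members, the rows of the domain above 0, the nearest neighbours, and per list the genes at least 2-fold apart or otherwise the 2 most abundant. Members and lists were chosen with earlier results of these data known. Alternatives were other pseudocounts, filters, scalings and a 1.5-fold limit. Python 3.11.15, numpy 2.4.6, pandas 2.3.3, scipy 1.17.1 and matplotlib 3.10.9 were used.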

Additional observations from a re-analysis of the deposited data

How the results depend on the processing

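No paired analysis was possible because only 1 library stands for each genotype, and leaving out a library would leave nothing to compare. No log2 ratio of a measured member changed sign under the alternatives that gave one, 6 for Dlk1, Mirg and Rtl1 and 7 for Meg3 and Rian. The log2 ratio of Meg3 lay between 0.81 and 1.24, that of Rian between 0.55 and 0.75, Mirg between 0.23 and 0.69, Rtl1 between 0.16 and 0.79, and Dlk1 between 0.023 and 0.17. With a pseudocount of 5 Meg3 was at 0.81 and 0 members passed the 2-fold limit, since that pseudocount lowers the ratios of low genes. With a 1.5-fold limit 2 members passed it, Meg3 and Rian. A minimum mean of 5 FPKM left Meg3 and Rian, both above 0, so 2 members were counted as higher and no difference between the parental classes could be given. That difference was 0.40 to 0.53 under the other alternatives that left out Dio3. Without a filter it was 0.58, but there Dio3, listed at 0 in both libraries, entered the paternal mean as a log2 ratio of 0.

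Over all genes, those past the limit numbered 98 higher and 98 lower when 0.1 was the pseudocount. They numbered 16 higher and 17 lower when it was 5. At the 1.5-fold limit there were 175 higher and 408 lower genes, and a minimum mean of 5 FPKM left 26 higher. Lower genes were 25 with median centring, 27 with upper-quartile scaling and 25 with the trimmed mean. Under these scalings the share of genes above 0 was 50%, 50.3% and 49.7%.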
